A study of Homo sapiens with 36 samples.

Results

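The genes described here are 10 keratins, KRT5, KRT6A, KRT7, KRT8, KRT14, KRT15, KRT17, KRT18, KRT19 and KRT80, out of 27852 genes with a symbol in the deposited table. They were looked up by symbol, and are keratins that separate luminal from basal prostate epithelium or that mark simple epithelia, and the values of all transcripts of a gene were summed. RNA came from 36 cultures of 4 human prostate cancer (PCa) cell lines after 5 days. The study classes C4-2 and C4-2B among its osteoblastic lines (BPCa), and 22Rv1 and DU145 among its osteolytic lines (LPCa).

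Each line was grown in 4 ways in a horizontal co-culture device, in which a filter keeps the PCa cells apart from the partner cells. Per line, 3 libraries came from cells grown alone without RANKL and 2 from cells facing MG63. A further 2 came from cells grown alone in RANKL at 50 ng/mL, and 2 from cells facing RAW264.7 at the same RANKL dose. MG63 cells, from a human osteosarcoma, served as osteoblast-like partners. RAW264.7 is a mouse monocytic line that can become osteoclasts under RANKL, and the sample labels spell it RAW246.7. Each PCa line is a single established line, and C4-2B was derived from C4-2, so lines stand for themselves and not for a class of tumours. The labels number the libraries of a group as separate samples without naming their source, so the p-values given here measure the spread between these libraries, which may be technical.

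Keratins are the intermediate filament proteins of epithelial cells. A filament needs a type I keratin (here KRT14, KRT15, KRT17, KRT18 and KRT19) paired with a type II keratin (here KRT5, KRT6A, KRT7, KRT8 and KRT80), and the partners are kept in step in many tissues. In the prostate, luminal secretory cells carry KRT8 with KRT18, while basal cells carry KRT5 with KRT14 and often KRT15 and KRT17. KRT7 and KRT19 belong to ducts and other simple epithelia, KRT6A is induced in stressed or proliferating stratified epithelium, and KRT80 is a type II keratin found in many epithelia, where it lies near desmosomes.

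Total deposited counts were 23932472 to 36719047 per library in mono-cultures without RANKL, while the other 24 libraries held 9593426 to 15418211, and the ratio of the median totals was 2.46. Depth therefore moved with both comparisons against the mono-cultures without RANKL. The 2 DU145 co-cultures with MG63 stood apart from each other, with a root mean square log2 difference of 0.621 over genes against 0.171 to 0.282 in the other 23 replicate pairs. The luminal markers matched the labels of C4-2 and C4-2B, with a summed level of 7540 to 7780 CPM in C4-2 and 8481 to 8899 CPM in C4-2B mono-cultures. In DU145 mono-cultures the same 8 luminal genes summed to 34.9 to 39.0 CPM. 8 basal markers other than keratins summed to 569.5 to 607.5 CPM there and to 10.7 to 12.7 CPM in C4-2. The sum did not hold for each of them, as 2 of the 8 were under 1 CPM in DU145 mono-cultures. TP63, among these 8, had 2.8 to 10.9 counts in DU145 and 5.2 to 25.4 in C4-2 mono-cultures.

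CPM here are deposited counts scaled to a library total of 1000000. The deposited values had already been divided by transcript length, as shown by the whole numbers of reads that return when a value is multiplied by length, so CPM of different genes can be set side by side. 3 reads, taken as the detection limit, came to 0.0545 to 0.0858 CPM of KRT5 in the mono-cultures without RANKL and to 0.126 to 0.207 CPM in the other libraries. This limit covers counting error only.

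All type II members lie together on chromosome 12 and the type I members on chromosome 17, except KRT18. In GENCODE 29 (GRCh38) KRT8 spans chr12:52897187-52949954 on the minus strand and KRT18 spans chr12:52948871-52952901 on the plus strand, so that the outermost KRT8 start lies inside the KRT18 locus. KRT80 spans chr12:52168996-52192000, KRT7 chr12:52232520-52252186, KRT6A chr12:52487174-52493257 and KRT5 chr12:52514575-52520687. On chromosome 17, KRT15 spans chr17:41513743-41522529, KRT19 chr17:41523617-41528308, KRT14 chr17:41582279-41586921 and KRT17 chr17:41619441-41624842. RefSeq promoter sequence was at hand for 2 of the 10 members, and these are shown because one gene was nearly silent and the other was among the most abundant keratins in all 4 lines. Each run is the 250 bases before the annotated start on the minus strand of GRCh38.p14, written 5′ to 3′, at chr12:52520395-52520644 for KRT5 and chr12:52926470-52926719 for KRT8. The capitals mark CAGGTG, the E-box that was searched for.
KRT5: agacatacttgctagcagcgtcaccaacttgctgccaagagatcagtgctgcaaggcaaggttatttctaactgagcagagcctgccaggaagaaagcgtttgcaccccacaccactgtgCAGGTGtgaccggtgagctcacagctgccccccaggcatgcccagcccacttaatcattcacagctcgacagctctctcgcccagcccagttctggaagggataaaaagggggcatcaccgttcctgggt
KRT8: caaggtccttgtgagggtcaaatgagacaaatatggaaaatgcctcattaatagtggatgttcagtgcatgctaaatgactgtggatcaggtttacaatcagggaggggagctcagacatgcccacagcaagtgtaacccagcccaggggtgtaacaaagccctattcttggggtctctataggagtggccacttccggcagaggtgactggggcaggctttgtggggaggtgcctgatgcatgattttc
The KRT5 window held CAGGTG once, at position -130 from the start, a motif present in 17.5% of 35116 promoter windows of this length when both strands were read. Neither window held TATAAA (10.7% of windows), GGGCGG (42.6%), TGANTCA (6.57%) or CCAAT (32.0%). GC content was 56.0% in the KRT5 window and 50.4% in the KRT8 window. The KRT8 window belongs to a start that carried 0.0% to 0.42% of the KRT8 counts in these libraries, whereas 76.9% to 95.66% came from transcripts that start further downstream.

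KRT8 and KRT18, the luminal pair, were present in every library at 214 to 1004 CPM for KRT8 and 233 to 851 CPM for KRT18. In the mono-cultures KRT8 stood at 251, 255 and 268 CPM in C4-2, at 233, 258 and 255 CPM in C4-2B, at 233, 230 and 240 CPM in 22Rv1 and at 639, 615 and 620 CPM in DU145. KRT18 stood at 365, 375 and 388 CPM in C4-2, at 331, 361 and 352 CPM in C4-2B, at 243, 233 and 236 CPM in 22Rv1 and at 418, 408 and 406 CPM in DU145. DU145 was thus the highest for both genes, with no overlap with the other lines, and for KRT8 C4-2B overlapped with both C4-2 and 22Rv1, while 22Rv1 lay below C4-2. The number of KRT8 counts per KRT18 count was 0.634 to 0.706 over the 9 libraries of C4-2, 0.57 to 0.725 in C4-2B, 0.773 to 1.17 in 22Rv1 and 1.16 to 1.53 in DU145. KRT8 processed pseudogenes, of which 51 had a symbol, held 2.02% to 7.29% of the joint value of gene and pseudogenes, and 67 KRT18 pseudogenes held 0.612% to 1.92%.

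**Figure D1:**
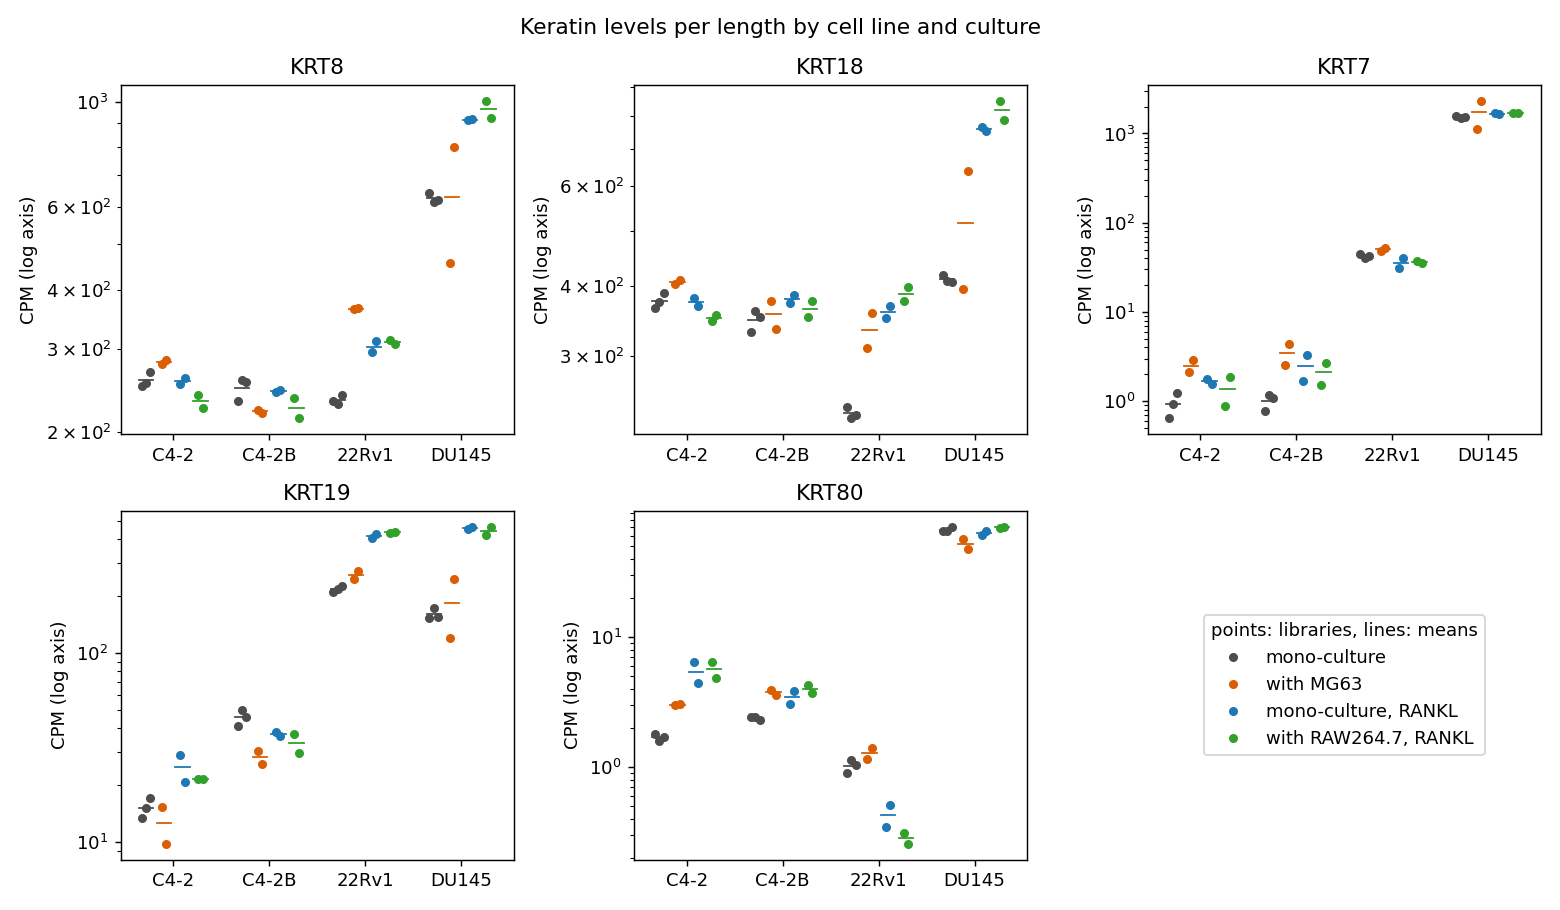
Levels of KRT8, KRT18, KRT7, KRT19 and KRT80 in CPM on log axes for the 4 cell lines (horizontal axis) in the 4 cultures (colours). Points are libraries and short lines are group means. KRT8 and KRT18 stay within a narrow band, while KRT7 runs from about 1 CPM in C4-2 to 1488 CPM or more in the DU145 mono-cultures.

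KRT7, the simple-epithelial partner of KRT19, had the widest range of the 10 genes. It stood at 0.65, 0.93 and 1.22 CPM in the C4-2 mono-cultures and at 0.77, 1.18 and 1.09 CPM in C4-2B. In 22Rv1 it stood at 45.1, 40.7 and 42 CPM, and in DU145 at 1587, 1488 and 1545 CPM, which made it the most abundant keratin of that line. C4-2 and C4-2B overlapped, and the steps to 22Rv1 and to DU145 did not.

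KRT19, a type I keratin that lacks the tail domain of other keratins, stood at 13.3, 15.2 and 17.0 CPM in C4-2 mono-cultures and at 41.3, 50.3 and 45.7 CPM in C4-2B. It stood at 210, 220 and 226 CPM in 22Rv1 and at 154, 173 and 155 CPM in DU145. The order was therefore not that of KRT7, since 22Rv1 lay above DU145 here. KRT80 stood at 1.79, 1.60 and 1.70 CPM in C4-2, at 2.41, 2.44 and 2.32 CPM in C4-2B, at 0.90, 1.14 and 1.03 CPM in 22Rv1 and at 65.9, 64.7 and 70.4 CPM in DU145. Each of the 4 lines had its own range of KRT80, with 22Rv1 the lowest.

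The basal keratins were close to absent. KRT5, the defining type II keratin of basal cells, had a read in 5 of 36 libraries and never more than 3. KRT6A had a read in 6 libraries, with 4 reads at most, and KRT17 in 9 libraries, with 5.1 reads at most and none in C4-2 or C4-2B. KRT14, the type I partner of KRT5, was found in all 18 libraries of C4-2 and C4-2B, at 0.13 to 1.66 CPM with 2 to 48 reads. It had 0 reads in all 9 libraries of DU145, the line in which the sum of basal markers other than keratins was highest, and at most 3 reads in 22Rv1. KRT15 went the other way, with 3.08 to 5.65 CPM in DU145, 0.721 to 3.29 CPM in 22Rv1 and at most 0.266 CPM in C4-2 and C4-2B. Among these 5 genes, KRT15 alone reached the 100 counts needed for a test, and it did so only through DU145. KRT80 also reached it only through DU145, with at most 89.9 counts in any library of the other lines, so that a high value in DU145 was needed for either gene to be tested at all. KRT7 reached it through 22Rv1 and DU145, with at most 59.5 counts in C4-2 or C4-2B, so that its contrasts of these lines with C4-2 and C4-2B are given as descriptions. The other members tested were KRT7, KRT8, KRT18, KRT19 and KRT80, which made 6 of 10 in fits with the libraries without RANKL and 5 of 10, without KRT15, in the fit of the 16 libraries with RANKL.

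**Figure D2:**
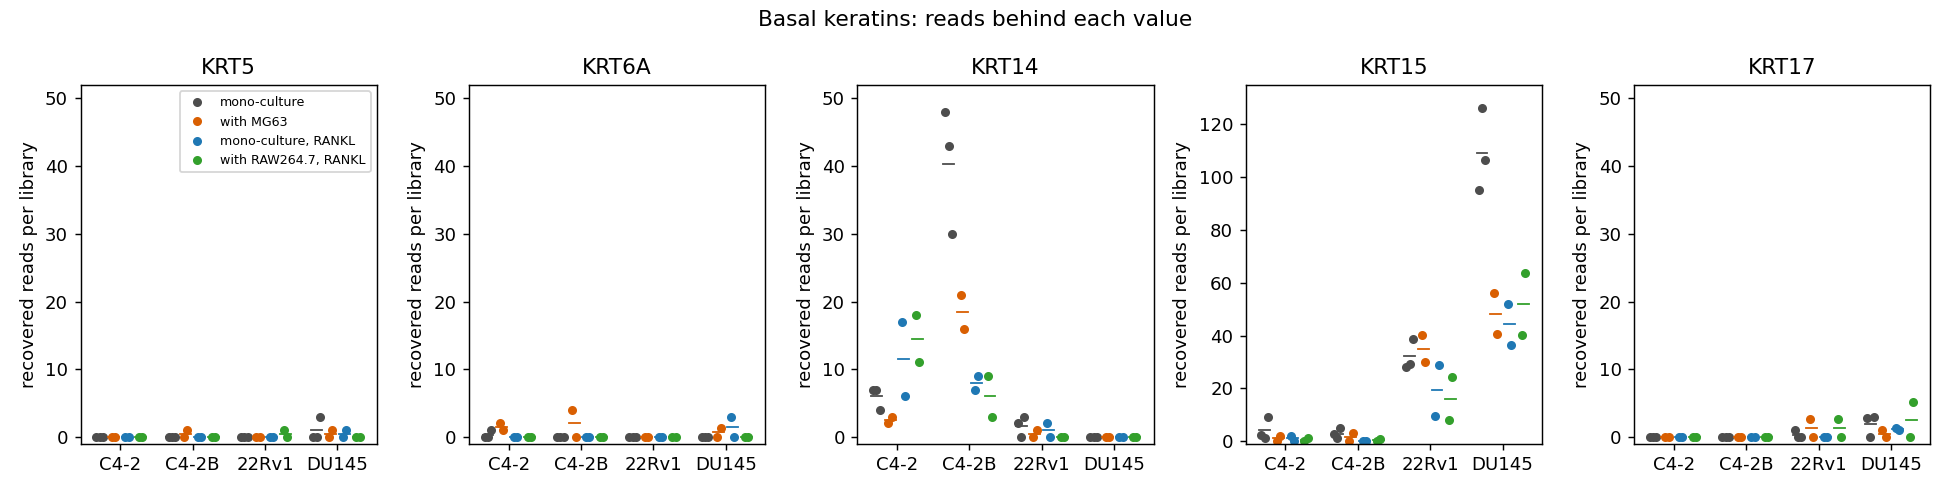
Number of reads behind the values of KRT5, KRT6A, KRT14, KRT15 and KRT17, one panel per gene, by cell line (horizontal axis) and culture (colours), with points for libraries and lines for means. KRT5, KRT6A and KRT17 stay at 0 to 5.1 reads, KRT14 is confined to C4-2, C4-2B and a few 22Rv1 libraries, and KRT15 reaches 126.2 reads in DU145.

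Set side by side per length, the keratin mix differed between the lines. In C4-2 mono-cultures KRT18 held 55.0% ± 0.256 of the summed keratin CPM (SD, n = 3 here and below) and KRT8 37.7% ± 0.133, and in C4-2B they held 51.2% ± 0.32 and 36.6% ± 0.339. In 22Rv1 KRT18, KRT8 and KRT19 held near-equal shares of 31.9% ± 0.735, 31.5% ± 0.216 and 29.4% ± 0.948. In DU145 KRT7 held 53.9% ± 0.758, KRT8 21.9% ± 0.0753, KRT18 14.4% ± 0.15 and KRT19 5.64% ± 0.478. Summed over all keratins, type II counts per type I count came to 0.623 in C4-2, 0.601 in C4-2B, 0.598 in 22Rv1 and 3.75 in DU145. No type I member of DU145 came near the level of KRT7, and the summed keratin level was also higher in DU145, at 2855.1 CPM against 680.0 to 743.7 CPM in the other 3 lines. The 5 basal keratins together held at most 0.327% of keratin CPM in any library.

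**Figure D3:**
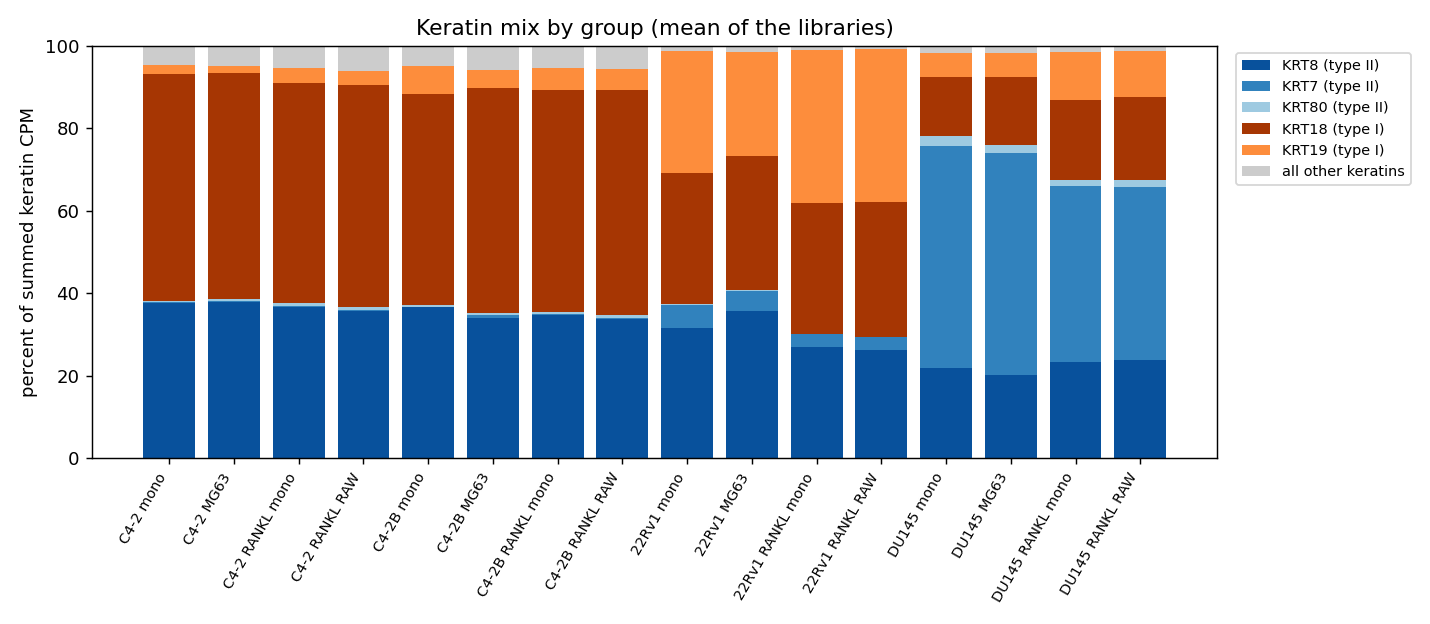
Percent of summed keratin CPM held by KRT8, KRT7 and KRT80 (type II, blue), KRT18 and KRT19 (type I, orange) and all other keratins (grey), as group means for the 16 groups on the horizontal axis. KRT18 and KRT8 fill most of the C4-2 and C4-2B bars, KRT19 takes 29.4% in 22Rv1 mono-cultures and KRT7 53.9% in DU145 mono-cultures.

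The differences between lines were tested in the mono-cultures without RANKL with edgeR's quasi-likelihood test, adjusted over all 13437 genes, and measured again in the other cultures. KRT7 was higher in 22Rv1 than in the mean of C4-2 and C4-2B by 5.39 on the log2 scale, and higher in DU145 than in 22Rv1 by 5.19. KRT80 was higher in DU145 than in 22Rv1 by 6.04, which the count limit reached in DU145 alone had required, and lower in 22Rv1 than in C4-2 and C4-2B, at -1.05, on fewer than 100 counts in every library of those 3 lines. KRT19 was 1.64 higher in C4-2B than in C4-2 (adjusted p = 3.5e-05). C4-2B and C4-2 differed in 2 of 6 members tested, against 13.6% of all genes, the other one being KRT80 at 0.54 (adjusted p = 0.0041). DU145 and 22Rv1 differed in 6 of 6, against 79.6% of all genes, but KRT15 and KRT80 were tested only because they were high in DU145. 22Rv1 differed from C4-2 and C4-2B in 5 of 6 (75.9% of all genes), with KRT8 at -0.18 not called, and DU145 differed from them in 5 of 6 (81.6%), with KRT18 at 0.13 not called. For these reasons nothing is read from the number of members called between lines. KRT19 in DU145 against 22Rv1, at -0.43 (adjusted p = 0.046), lost its call when any 1 of the 6 mono-cultures was left out, with adjusted p of 0.054 to 0.12.

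Of 20 pairs of a gene and a line contrast that could be tested in all 4 cultures, 11 were called higher in all 4, 1 was called lower in all 4 and 3 were called in none. The 11 include KRT80 in DU145 against the other lines and KRT7 in 22Rv1 and DU145 against C4-2 and C4-2B, genes that were tested only because they were high there, so nothing is read from this number. Over all genes, 22.1% of such pairs were called higher in all 4 cultures, 21.9% lower in all 4 and 24.2% in none. The lower one was KRT80 in 22Rv1 against C4-2 and C4-2B, at -4.06 to -1.05. KRT19 was higher in C4-2B than in C4-2 in every culture, by 0.63 to 1.64, and KRT7 was higher in DU145 than in 22Rv1 in every culture, by 5.08 to 5.58. KRT80 in C4-2B against C4-2 ran from -0.63 to 0.54 and was called in the mono-cultures without RANKL alone. KRT8 in 22Rv1 against C4-2 and C4-2B ran from -0.18 to 0.5 and was called higher in 3 of 4 cultures. KRT18 in DU145 against C4-2 and C4-2B ran from 0.13 to 1.14 and was also called higher in 3 of 4. Between C4-2B and C4-2, 8.16% of all genes were called with MG63, 6.5% in mono-culture with RANKL and 6.4% with RAW264.7.

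Co-culture with MG63 cells was compared with mono-culture to ask what osteoblast-like cells do to the PCa cells. 9 of 24 gene and line pairs were called, 8 higher and 1 lower. In C4-2 and C4-2B, KRT7 and KRT80 rose. In 22Rv1, KRT8, KRT18 and KRT15 rose. In DU145, KRT18 rose and KRT80 fell, in libraries that differed from each other. Over all genes, 10.1% were called in C4-2 (5.3% higher and 4.79% lower), 7.41% in C4-2B (3.52% and 3.89%), 20.4% in 22Rv1 (11.2% and 9.18%) and 30.5% in DU145 (15.2% and 15.3%).

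With MG63, KRT80 stood at 2.99 and 3.06 CPM in C4-2 and at 3.92 and 3.57 CPM in C4-2B, above all mono-cultures of the line. The changes were 0.93 (SE 0.14, adjusted p = 0.00037) in C4-2 and 0.71 (SE 0.13, adjusted p = 0.0031) in C4-2B. Without replicate 1 of the C4-2B co-cultures, the KRT80 change in C4-2B was 0.63 (adjusted p = 0.14). KRT7 stood at 2.12 and 2.87 CPM in C4-2 and at 2.54 and 4.34 CPM in C4-2B, also above the mono-cultures, but on 13 to 37 reads per library in C4-2 and 19 to 49 in C4-2B over all cultures. Its changes were 1.53 (SE 0.44, adjusted p = 0.035) and 1.86 (SE 0.40, adjusted p = 0.0095). The KRT7 call in C4-2 was lost without mono-culture replicate 1 or 2 or either MG63 replicate (1.29 to 1.74, adjusted p 0.07 to 0.3), and that in C4-2B without MG63 replicate 2 (1.44, adjusted p = 0.18). KRT8, KRT18 and KRT19 were not called in either line, KRT19 in C4-2B being at -0.63 (adjusted p = 0.11).

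In 22Rv1 the luminal pair was higher with MG63. KRT8 stood at 364 and 366 CPM against 230 to 240 CPM in mono-culture, a change of 0.75 (SE 0.14, adjusted p = 0.0015). KRT18 stood at 310 and 358 CPM against 233 to 243 CPM, a change of 0.60 (SE 0.13, adjusted p = 0.0043) that was 0.47 (adjusted p = 0.1) without MG63 replicate 2. Neither gene overlapped between the cultures. Against mono-cultures with RANKL neither was called, with KRT8 at 0.33 (adjusted p = 0.33) and KRT18 at -0.04 (adjusted p = 0.93). KRT15, at 2.61 and 3.29 CPM against 0.72, 1.38 and 1.25 CPM, changed by 1.5 (SE 0.42, adjusted p = 0.019), and this call was lost without mono-culture replicate 1 or either MG63 replicate (1.27 to 1.69, adjusted p 0.052 to 0.16). KRT7 (0.34), KRT19 (0.36) and KRT80 (0.46) were not called.

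In DU145 the 2 co-cultures with MG63 lay on either side of the mono-cultures. KRT7 stood at 1124 and 2324 CPM, KRT8 at 456 and 800, KRT18 at 394 and 638 and KRT19 at 121 and 248. Replicate 1 was below and replicate 2 above all 3 mono-cultures for each of these 4 genes. KRT18 was called at 0.40 (adjusted p = 0.032), but the change was 0.02 (adjusted p = 0.91) without replicate 2 and 0.70 without replicate 1. The KRT18 call was lost as well without any 1 of the 3 mono-cultures (0.39 to 0.43, adjusted p 0.056 to 0.079). Without replicate 2, KRT7 was called at -0.37 and KRT8 at -0.38, and without replicate 1, KRT7 was called at 0.66, KRT8 at 0.42 and KRT19 at 0.69, so that their direction in DU145 rested on 1 library. KRT80, at 56.9 and 47.1 CPM against 64.7 to 70.4 CPM, was lower in both, at -0.29 (SE 0.08, adjusted p = 0.015). It was not called without replicate 2 (-0.16, adjusted p = 0.18) or without mono-culture replicate 3 (-0.25, adjusted p = 0.06).

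Calls in the other lines moved with this pair as well. Without DU145 replicate 2, the 1 co-culture left was assumed to vary like the other groups. Calls were then added for KRT8 (0.24) and KRT18 (0.22) in C4-2, KRT19 (-0.63) in C4-2B, and KRT7 (0.34) and KRT19 (0.35) in 22Rv1. The MG63 effect differed among the 4 lines for KRT80 (interaction, adjusted p = 0.00024), KRT8 (adjusted p = 0.036) and KRT7 (adjusted p = 0.041), and 14.5% of all genes passed this test. KRT80 passed whichever of the 20 libraries was left out, whereas KRT7 passed in 4 of 20 such fits (adjusted p up to 0.14) and KRT8 in 2 of 20 (up to 0.12). The 2 fits for KRT8 were those without one or the other DU145 co-culture, and KRT7 passed in these and without C4-2 mono-culture replicate 3 or C4-2B MG63 replicate 1. It did not pass for KRT19 (adjusted p = 0.098), KRT15 (0.15) or KRT18 (0.2), of which KRT18 and KRT19 passed without DU145 replicate 2 (0.0017 and 0.0026) and without replicate 1 (0.00016 and 9.7e-05).

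Depth differed between MG63 co-cultures and mono-cultures, and mono-cultures with RANKL had a depth near that of the co-cultures. Set against those instead, 5 of 20 pairs were called, and the MG63 effect differed among the lines for 1 member. Shares of all genes are not given for this control, so nothing is read from these counts. KRT7 was then not called in C4-2 (0.58, adjusted p = 0.71) or C4-2B (0.49, adjusted p = 0.77). KRT80 in C4-2 changed sign, at -0.85 (adjusted p = 0.04), and KRT80 in 22Rv1 was called at 1.51 (adjusted p = 0.039). KRT80 in C4-2B was at 0.10 (adjusted p = 0.93). In DU145, KRT18 (-0.56), KRT19 (-1.33) and KRT8 (-0.55) were called lower, all against the sign seen with the first control. This control also carries RANKL, so depth and RANKL cannot be told apart in it. Of markers of mesenchymal cells such as MG63, 12 genes summed to 5.42 to 9.48 CPM with MG63 and to 6.68 to 8.52 CPM in mono-culture of C4-2 and C4-2B. In 22Rv1 the sums were 26.5 to 27.7 against 19.1 to 22.7 CPM and in DU145 8.41 to 14.4 against 6.78 to 8.7 CPM, and their part in the keratin values was not tested. Of these 12 genes, 7 to 11 were under 1 CPM in the co-cultures. 3 could be tested, and COL5A2 alone was called, higher in DU145 (1.08, adjusted p = 0.0041, and 0.41, adjusted p = 0.32, without replicate 2).

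Mono-cultures with and without RANKL were compared next, since RANKL was present in both arms of the RAW264.7 comparison. All 9 of the 24 pairs called in the main fit were higher with RANKL. KRT19, KRT18 and KRT8 rose in both DU145 and 22Rv1, KRT80 rose in C4-2 and C4-2B, and KRT19 rose in C4-2. KRT7 in C4-2 and C4-2B was not called in the main fit and was called higher by DESeq2. Over all genes, 18.3% were called in C4-2 (9.16% higher and 9.16% lower), 14.4% in C4-2B (6.07% and 8.32%), 17.7% in 22Rv1 (8.9% and 8.85%) and 32.5% in DU145 (16.9% and 15.6%). Depth moved with this comparison too, and its part was not tested.

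KRT19 in DU145 stood at 457 and 464 CPM with RANKL, far above the 154 to 173 CPM of the mono-cultures without, a change of 1.62 (SE 0.18, adjusted p = 1.8e-07). In 22Rv1 it stood at 409 and 425 CPM against 210 to 226 CPM, a change of 0.96 (SE 0.18, adjusted p = 0.00047). KRT18 in DU145 stood at 764 and 751 CPM (0.99, adjusted p = 5e-07), and in 22Rv1 at 351 and 369 CPM (0.63, adjusted p = 0.00051). KRT8 reached 913 and 917 CPM in DU145 (0.65, adjusted p = 0.00023) and 295 and 312 CPM in 22Rv1 (0.40, adjusted p = 0.029). The KRT8 call in 22Rv1 was lost without mono-culture replicate 1 or 2 or either RANKL replicate (0.37 to 0.43, adjusted p 0.071 to 0.18). KRT7 stayed within 1661 to 1676 CPM in DU145 with RANKL, a change of 0.22 that was not called, so that the KRT7 share of the DU145 keratins was 42.6% with RANKL and the KRT19 share 11.7%. Type II counts per type I count were 2.1 there.

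KRT80 in C4-2 stood at 6.42 and 4.44 CPM with RANKL against 1.60 to 1.79 CPM without, a change of 1.77 (SE 0.15, adjusted p = 6.4e-09). In C4-2B it stood at 3.03 and 3.85 CPM (0.60, adjusted p = 0.015), and without RANKL replicate 2 the change was 0.40 (adjusted p = 0.4). In 22Rv1 KRT80 stood at 0.35 and 0.51 CPM against 0.90 to 1.14 CPM, at -1.07 (adjusted p = 0.067). In reads recovered from value times length, KRT80 was called lower there (-1.225, adjusted p = 0.0026). KRT19 in C4-2, at 28.8 and 20.9 CPM, was called at 0.80 (adjusted p = 0.01), and was at 0.54 (adjusted p = 0.26) without RANKL replicate 1. The RANKL effect differed among the lines for KRT80 (interaction, adjusted p = 9.3e-08), KRT19 (0.00014), KRT18 (0.00056) and KRT8 (0.027), as it did for 32.6% of all genes, and not past the threshold for KRT7 (0.061, and 0.039 without C4-2B RANKL replicate 1). The KRT8 call was lost without C4-2B RANKL replicate 1, DU145 mono-culture replicate 2 or 3, or either DU145 RANKL replicate (adjusted p up to 0.07). The MG63 and RANKL comparisons share the same 12 mono-cultures, so their values are not independent.

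Co-culture with RAW264.7 cells was compared with mono-culture, both with RANKL, to ask what the osteoclast precursors add. No member was called in any line. The 20 changes ran from -0.67 to 0.23 with SE of 0.06 to 0.65, the smallest adjusted p was 0.7, and DESeq2 called 0 as well. 2 of 20 had an unadjusted p under 0.05 in edgeR, KRT8 in C4-2 (-0.14) and KRT18 in 22Rv1 (0.14). For KRT8 and KRT18 the changes lay within -0.14 to 0.14, with a 95% interval of -0.26 to -0.03 for KRT8 in C4-2. For KRT7 in C4-2, at 0.88 and 1.85 CPM with RAW264.7, the interval of -1.28 to 0.55 was wide. The 10 macrophage and osteoclast markers summed to 12.2 to 67.3 CPM with RAW264.7 and to 13.3 to 66.8 CPM without, with TYROBP at 0 in all 8 groups. RAW264.7 is a mouse line and these are human genes, so the sums cannot tell whether its RNA was carried over. Over all genes, 0.0174% were called in C4-2, 0.139% in C4-2B, 0.00868% in 22Rv1 and 0.026% in DU145, and 0.0347% of genes differed among the lines in this effect. With RAW264.7, DU145 carried KRT8 at 1004 and 923 CPM, KRT18 at 851 and 788 CPM and KRT19 at 423 and 468 CPM, all in or beside the range of the RANKL mono-cultures. The higher KRT8, KRT18 and KRT19 values of 22Rv1 and DU145 with RANKL were seen in both kinds of RANKL culture.

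**Figure D4:**
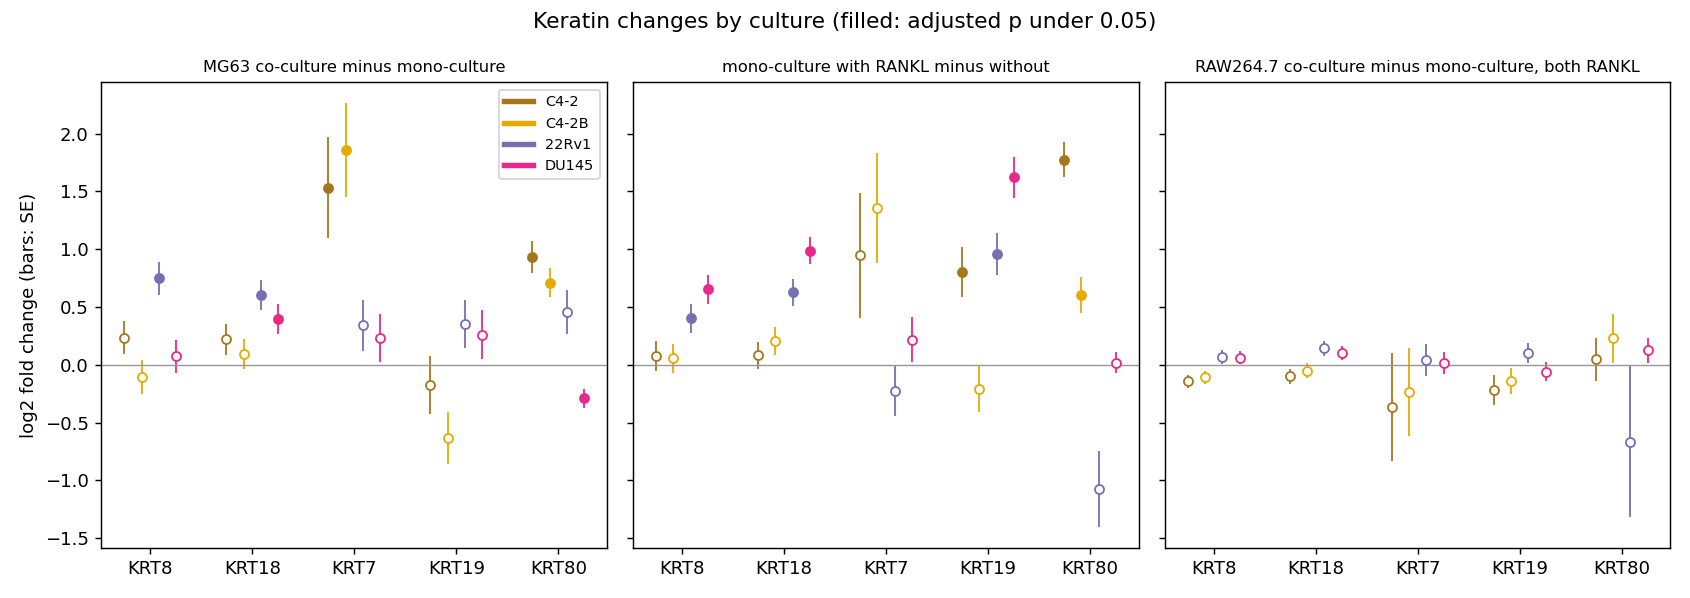
Log2 fold changes of KRT8, KRT18, KRT7, KRT19 and KRT80 in the 4 cell lines (colours) for MG63 co-culture, RANKL and RAW264.7 co-culture, with bars for the standard error and filled symbols for adjusted p under 0.05. Filled symbols appear in the first and second panel, with KRT80 in C4-2 (1.77) and KRT19 in DU145 (1.62) the highest in the second, and none appear in the third.

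Low keratins that missed the 100 counts were seen in a fit without that filter. KRT14 was higher in C4-2B than in C4-2 mono-cultures, with 1.33, 1.48 and 1.23 CPM against 0.22, 0.26 and 0.13 CPM (2.81, adjusted p = 0.013). With RANKL, KRT14 in C4-2 stood at 1.38 and 0.64 CPM (2.36, adjusted p = 0.045), and with RAW264.7 at 1.66 and 1.16 CPM. In C4-2B it stood at 0.52 and 1.44 CPM with RANKL and at 0.60 and 0.58 CPM with RAW264.7, so the order of C4-2 and C4-2B seen in mono-culture was not kept there. All these values rest on 2 to 48 reads.

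KRT8 transcripts fell into starts far apart. 2 transcripts that start at 52906618 to 52907060 held 76.9% to 95.66% of KRT8 counts, and 7 transcripts that start at 52949776 to 52949954, inside the KRT18 locus on the opposite strand, held 3.87% to 21.98%, with a median of 17.66%. The share of this outer start was 18.3% to 20.2% in C4-2 mono-cultures and 13.7% and 12.7% with MG63. It was 19.9% to 21.7% against 16.6% and 15.5% in C4-2B, 17.6% to 19.4% against 14.3% and 14.9% in 22Rv1, and 10.8% to 11.8% against 10.4% and 3.87% in DU145. The co-cultures with MG63 lay below all mono-cultures of the same line in 4 of 4 lines. These transcripts share most of their exons, so the split is an estimate. Mono-cultures with RANKL, whose depth was near that of the MG63 co-cultures, differed from mono-cultures without RANKL by a mean of -0.74 percentage points over the lines, and the MG63 co-cultures differed from those with RANKL by -4.06. Depth and RANKL cannot be told apart in that control.

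**Figure D5:**
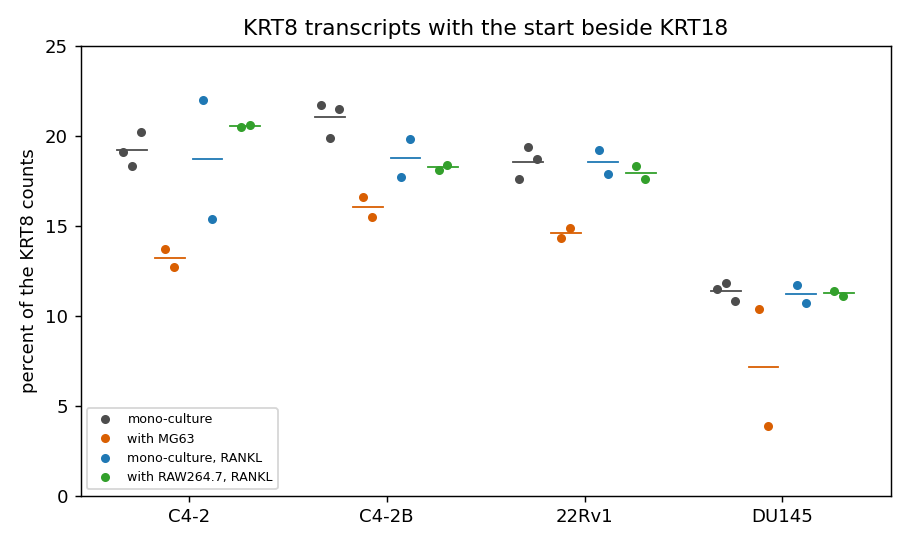
Percent of KRT8 counts assigned to the 7 transcripts with the outer start beside KRT18, by cell line (horizontal axis) and culture (colours), with points for libraries and lines for means. The MG63 co-cultures lie below the mono-cultures in each line, and the lowest point is the DU145 co-culture at 3.87%.

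KRT7, KRT19 and KRT80 were mostly carried by 1 transcript where they were abundant. KRT7 counts in DU145 mono-cultures came to 78.8% ± 0.407 (SD, n = 3) from ENST00000331817. For KRT19 ENST00000361566 held 98.5% ± 0.0403 in DU145, 94.2% ± 0.797 in 22Rv1, 74.9% ± 3.23 in C4-2B and 71.0% ± 13.1 in C4-2, so the split was less even between libraries where the gene was low. KRT15 in DU145 mono-cultures was spread over several of its 9 transcripts, of which ENST00000463447, a retained-intron transcript, held 31.8% ± 8.12, the protein-coding ENST00000393976 22.8% ± 7.87 and ENST00000586794, of 470 bases and with a retained intron, 22.5% ± 19.5. The KRT15 level therefore counts transcripts annotated as non-coding as well as coding ones. For KRT80 in DU145, ENST00000394815 held 69.5% ± 4.16 in mono-culture and 81.2% and 93.5% in the co-cultures with MG63, while ENST00000313234 held 24.6% ± 4.48 and then 5.29% and 11.1%.

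Of the 45 other keratins in the table, 6 reached 1 CPM and 3 reached 10 CPM in any library. KRT10, a type I keratin of suprabasal epidermis, reached 44.3 CPM, with line medians of 32.7 CPM in C4-2, 33 in C4-2B, 8.05 in 22Rv1 and 35.3 in DU145. KRT81 and KRT86, hair keratins of type II, reached 16.3 and 12.6 CPM, both in DU145. 4 of them could be tested with MG63. KRT81, at no more than 3.9 counts outside DU145, was lower in DU145 with MG63 (-1.59, adjusted p = 0.0023, and -1.87 and -1.34 without replicate 2 or 1 of that pair) and with RANKL (-1.04, adjusted p = 0.013). KRT86 was also lower in DU145 with RANKL (-1.80, adjusted p = 0.023), and KRT73, at no more than 108 counts, was lower in C4-2B with MG63 (-2.11, adjusted p = 0.023). KRT10 was higher in DU145 (0.83, adjusted p = 3.6e-06) and C4-2 (0.34, adjusted p = 0.04) with RANKL and in 22Rv1 with MG63 (0.60, adjusted p = 0.013). Against RANKL mono-cultures the KRT10 change in 22Rv1 with MG63 was not called (0.62, adjusted p = 0.13). The 10 members held 94.0% to 99.4% of all keratin CPM.

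Keratin filaments are anchored at desmosomes and hemidesmosomes, and 14 of 17 genes of these junctions could be tested with MG63. For this and the lists that follow, the shares of all genes in C4-2, C4-2B, 22Rv1 and DU145 were 5.3%, 3.52%, 11.2% and 15.2% higher and 4.79%, 3.89%, 9.18% and 15.3% lower with MG63. With RANKL they were 9.16%, 6.07%, 8.9% and 16.9% higher and 9.16%, 8.32%, 8.85% and 15.6% lower. Lists of this size give coarse shares, and no test was made of them. The DU145 counts with MG63 rest on the pair of co-cultures that stood apart. The genes called there changed without replicate 2 or replicate 1 of it. The DU145 medians were then -0.07 and -0.4 for junction genes and 0.05 and -0.13 for regulators. For other intermediate filament genes they were -0.06 and 0.25. With RANKL mono-cultures as control, 0, 0, 0 and 1 of 13 junction genes rose in the 4 lines and 0, 0, 1 and 8 fell. Of 10 regulators, 1, 0, 1 and 3 rose and 0, 0, 3 and 2 fell. Shares of all genes are not given for this control, here or in the lists that follow, so nothing is read from these counts. With MG63 against mono-cultures without RANKL, 2, 1 and 3 of the 14 junction genes rose in C4-2, C4-2B and 22Rv1 and 0 fell. Their median was 0.15, 0.15 and 0.30 against -0.01, 0.00 and 0.00 over all genes, and in DU145 3 rose and 4 fell. Leaving out either DU145 co-culture changed the junction genes called in the other lines as well. JUP, plakoglobin, rose in C4-2 (0.36), C4-2B (0.25) and 22Rv1 (0.58) and fell in DU145 (-0.46). Against RANKL mono-cultures JUP was called in DU145 (-0.72) and not in the other 3 lines. With RANKL, 3, 2, 4 and 7 of 15 rose in C4-2, C4-2B, 22Rv1 and DU145, and 1 fell, DSP in C4-2B (-0.33). In DU145 DSP, desmoplakin, which ties keratins to the desmosome, rose from 10.7 ± 0.417 to 26.1 ± 0.212 CPM (SD, n = 3 and 2), a change of 1.39 (adjusted p = 3e-11), and PKP2 rose by 1.62. DSC2, a desmosomal cadherin, rose in 22Rv1 by 1.27. With RAW264.7, 0 of 14 were called in edgeR in each line.

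Among 12 regulators of epithelial genes, 10 could be tested. ELF3, an epithelial ETS factor, rose with MG63 in all 4 lines, by 1.21 in C4-2, 0.98 in C4-2B, 0.82 in 22Rv1 and 0.35 in DU145. In DU145 it was at 0.15 (adjusted p = 0.43) without replicate 2, and against RANKL mono-cultures it was not called in C4-2B (0.48) or 22Rv1 (0.18). In all, 1, 1, 2 and 2 regulators rose in these lines and 0, 1, 0 and 1 fell, KLF4 being lower in C4-2B (-0.64) and DU145 (-0.58, and not called without replicate 1). Against RANKL mono-cultures KLF4 was at 0.22 (adjusted p = 0.73) in C4-2B and at -0.61 (adjusted p = 0.04) in DU145. With RANKL, 1, 2, 5 and 1 rose and 2, 1, 0 and 3 fell, with GRHL1 higher in 22Rv1 (0.93) and lower in DU145 (-0.87). Between DU145 and the mean of C4-2 and C4-2B in mono-culture, 4 of 10 regulators were higher and 5 lower, with a median of -0.44, against 81.6% of all genes called. EHF (-9.75), GRHL2 (-5.59), OVOL2 (-4.29) and OVOL1 were lower in DU145, where they had 0 to 23 counts in mono-culture and would have failed the count limit without the other lines. For OVOL1, at 0 to 2.5 counts there, no fold is given. KLF5 (2.85), TFAP2A (2.86), ELF3 (1.38) and KLF4 (0.29), named after their values were seen, were the 4 that were higher.

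Of the other intermediate filament genes, 10 of 13 could be tested with MG63, of which 0, 0, 1 and 4 rose and 0, 0, 1 and 0 fell. With RANKL mono-cultures as control, 1, 0, 1 and 0 of 8 rose and 0, 1, 0 and 1 fell. Leaving out either DU145 co-culture changed the filament genes called in C4-2 as well. VIM, vimentin, stood at 1259.9 ± 25.2 CPM in DU145 mono-cultures (SD, n = 3), next to KRT7 among its filament genes, and at 19.4 ± 0.998, 4.02 ± 0.497 and 19.8 ± 1.84 CPM in C4-2, C4-2B and 22Rv1. With RANKL, VIM fell by 1.26 in C4-2 and by 0.83 in 22Rv1, and rose by 1.62 in C4-2B and 0.41 in DU145. In all, 0, 1, 1 and 3 of these genes rose with RANKL, against 9.16%, 6.07%, 8.9% and 16.9% of all genes, and 1, 0, 1 and 0 fell.

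Luminal and basal markers other than keratins are counted against the same shares of all genes, 3.52% to 15.2% higher and 3.89% to 15.3% lower with MG63. With MG63, 0, 0, 5 and 1 of 8 luminal genes rose and 1, 4, 3 and 0 fell in C4-2, C4-2B, 22Rv1 and DU145. KLK3, prostate-specific antigen, was higher in 22Rv1 (0.99) and lower in C4-2B (-0.38). With RANKL mono-cultures as control, 1, 1, 3 and 0 luminal genes rose and 2, 0, 0 and 1 fell. KLK3 was then not called in 22Rv1 (0.18, adjusted p = 0.46) or in C4-2B, where its sign turned (0.27, adjusted p = 0.31). Leaving out either DU145 co-culture changed the luminal genes called in C4-2 as well. Of 5 basal genes tested, 0, 0, 0 and 1 rose and 0, 0, 0 and 1 fell. With RANKL mono-cultures as control, 0, 0, 0 and 0 rose and 0, 0, 0 and 2 fell. Leaving out either DU145 co-culture changed the basal genes called in C4-2, C4-2B and DU145. With RANKL, 3, 2, 2 and 2 luminal genes rose and 1, 5, 2 and 1 fell, and 1, 0, 2 and 1 of 6 basal genes rose and 0 fell.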

How the data were processed

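RNA from 36 cultures was sequenced after poly-A selection with a strand-specific library. The authors quantified reads with kallisto and summarized them with tximport, and the submitters' processing notes name hg19, FastQC and kallisto. The deposited estimated counts, 1 per transcript and sample, behaved as TPM-scaled counts: multiplied by transcript length plus 1, 57.1% to 64.1% of the single-transcript gene values checked were whole multiples of 1 constant per library within 0.01 (transcripts over 800 bases, under 20 reads). They are therefore per length. All 36 columns were mapped by the labels and 0 were left out. The 6878 transcripts without a symbol entered only the library totals.

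Repeated lines of a transcript were used once, and values were summed per gene, rounded and tested with edgeR 4.0.16 (TMM, quasi-likelihood test) in R 4.3.3, with 1 mean per line and culture, keeping each gene that reached 100 counts in any library fitted (13437 genes in 20 libraries without RANKL, 11525 in 16 with RANKL, 13454 in all 36). Genes were called at a Benjamini-Hochberg adjusted p under 0.05 over all genes tested. A test of the 3 differences between lines gave the interaction. Tests were checked on simulated data. Alternatives were DESeq2 1.42.0, library totals, no filter, 1 joint fit, a replicate block, the fold rule of the study, another control, pseudogenes added, each library left out and, chosen after the data were seen, reads recovered from value times length the keratin mix without 1 library, and the lists with MG63 without either DU145 co-culture or with the other control. The planned mix without division by length used those reads, because the values were per length already.

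The members and all lists were chosen with earlier results of these data known. Named are all 10 members and, per list, up to 4 called genes with the largest change, and the 3 genes most like each member, except for items that are not reported here. NEFL and ACPP were not matched. Coordinates are from GENCODE 29 (GRCh38), which held 95.4% of the transcripts.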

Additional observations from a re-analysis of the deposited data

Results flagged for a closer look

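The effect of a culture differed among the 4 lines in a test of that difference itself (edgeR's quasi-likelihood F test, adjusted over all genes) for 3 members with MG63 and 4 with RANKL, of 6 tested. Of all genes, 14.5% passed with MG63 and 32.6% with RANKL. With MG63 the adjusted p was 0.041 for KRT7, 0.036 for KRT8 and 0.00024 for KRT80. With RANKL it was 0.00056 for KRT18, 0.00014 for KRT19, 0.027 for KRT8 and 9.3e-08 for KRT80. With RANKL mono-cultures as control for MG63, 1 of the 3 members passed. The KRT80 change with MG63 was then -0.846 in C4-2 and 1.507 in 22Rv1. With each of the 20 libraries of a comparison left out in turn, KRT80 with MG63 and KRT18, KRT19 and KRT80 with RANKL passed in every fit. With MG63, KRT7 passed in 4 fits and KRT8 in 2, and both passed without one or the other DU145 co-culture, fits which leave a DU145 group of 1 library assumed to vary like the other groups. Their adjusted p was 3.2e-05 to 0.14 for KRT7 and 6.1e-07 to 0.12 for KRT8. With RANKL, KRT8 passed in 15 of 20 fits, and was not called without C4-2B RANKL replicate 1, DU145 mono-culture replicate 2 or 3, or either DU145 RANKL replicate (at most 0.07).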

How the results depend on the processing

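Of the member values recomputed under alternatives that kept all libraries, 689 kept their side of the threshold, 30 lost a call with the same direction, 8 gained one and 5 changed sign. With 1 library left out at a time, 37 calls of a change or a line contrast in mono-culture were lost and 27 gained, all 27 gains without 1 of the 2 DU145 co-cultures with MG63. Among the line differences of a culture effect, KRT7 with RANKL was gained without C4-2B RANKL replicate 1 (adjusted p = 0.039). With MG63, 9 pairs of a gene and a line were called, and 5 were called with the RANKL mono-cultures as control and 3 at a fold above 2 with an unadjusted p under 0.05. With that control the 5 sign changes were KRT80 in C4-2 (-0.846), KRT18 in 22Rv1 (-0.042), and KRT18 (-0.559), KRT19 (-1.33) and KRT8 (-0.55) in DU145. The fold rule called 4 pairs with RANKL against 9, with 2 shared. In reads not divided by length, type II held 81.3% of the DU145 keratins, KRT7 49.7% there, KRT19 25.3% in 22Rv1, and KRT18 48.5% in C4-2 and 45.4% in C4-2B. Leaving out 1 library at a time gave 7 to 17 calls with MG63 (14 and 17 without DU145 MG63 replicate 2 or 1), 0 to 0 with RAW264.7, 8 to 13 with RANKL, 17 to 20 between lines in mono-culture and 44 to 47 in the other cultures. It gave 4 to 10 line differences of the culture effect (main 7, and 4 without DU145 mono-culture replicate 2 or 3). The mix moved within 78.7% to 79.3% for type II in DU145, 53.7% to 54.3% for KRT7 there and 51.1% to 56.6% with MG63, 29.1% to 29.9% for KRT19 in 22Rv1, 54.9% to 55.1% for KRT18 in C4-2 and 51.0% to 51.3% in C4-2B. The replicate numbers did not pair the samples (16 correlations of -0.056 to 0.065, 0 over 0.1). With the replicate block 9 MG63 pairs, 10 RANKL pairs, 8 line differences and 46 line contrasts in the other cultures were called, KRT7 in C4-2B with RANKL being added (1.37). Recovered reads lost KRT7 in C4-2 (adjusted p = 0.071) and KRT15 in 22Rv1 (0.059) with MG63, and DESeq2 lost KRT80 in DU145 (0.052). With RANKL, recovered reads gained KRT80 in 22Rv1, called lower (-1.225, adjusted p = 0.0026). DESeq2 gained KRT7 with RANKL in C4-2 (0.965, adjusted p = 0.038) and C4-2B (1.395, adjusted p = 0.00042). Adding pseudogenes changed no call. The cause of these changes was not tested. KRT5, KRT6A and KRT17 were too low to compare at this depth.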

Other observations

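The share of KRT8 from the start beside KRT18 was picked out after its values had been seen, so its differences are descriptions. With MG63 it differed from mono-culture by a mean of -4.79 percentage points over the 4 lines, and by -3.98 points without DU145 replicate 2. Against mono-cultures with RANKL the difference was -4.06 points, but depth and RANKL cannot be told apart in that control. It was -0.74 points between mono-cultures with and without RANKL and 0.19 points when RAW264.7 cells were added to RANKL. The share of KRT18 counts in its second transcript, ENST00000388835, differed by -5.43 points with MG63 and by -3.82 points with RANKL.

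Over the 16 group means, after the mean of each line was subtracted, KRT8 ran closest to MISP (Pearson r = 0.945), ALKBH5 (0.905) and FLNC (0.889) of 10899 genes, and KRT18 to ACO1 (0.922), C11orf24 (0.916) and RRM2 (0.916). KRT19 ran closest to AP1S3 (0.952), MAPK13 (0.93) and HMMR (0.92), and the genes near KRT80 included VGLL4 (0.876) and TXNL1 (0.861). KRT7 ran closest to SLC9A7 (0.869), HSPA4 (0.858) and HBQ1 (0.853), and KRT15 to WNT7B (0.924), SIK1 (0.873) and SLC25A4 (0.873). Between members, r was 0.869 for KRT8 with KRT18, 0.771 for KRT18 with KRT19, 0.633 for KRT8 with KRT19, 0.491 for KRT7 with KRT80, 0.111 for KRT7 with KRT8 and -0.309 for KRT7 with KRT19. These are descriptions over 16 points that share lines, cultures and depth, and the named genes are among the highest of all genes compared.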
